A study of Mus musculus with 6 samples.

Results

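Lyz2 and Lyz1, the neighbouring mouse genes for lysozyme M and lysozyme P, were followed as 2 of the 31053 genes in 6 single-cell RNA libraries of brain leukocytes. They were chosen by symbol, because the mice of the study express Cre recombinase from the Lyz2 locus. The tested mice were Cd300a-fl/fl animals that carry Lyz2-cre (called Lyz2-cre), and their controls were Cd300a-fl/fl animals without the driver (called fl/fl), all C57BL/6. Every animal thus carried the floxed Cd300a gene, which encodes an inhibitory receptor for lipids exposed on dying cells. Brains came from naive mice, or from mice 1 h or 3 h after reperfusion that ended a 60 min filament occlusion of the middle cerebral artery. The text on the design calls the earliest time 0 h, whereas the sample titles call it naive. Living CD45-positive cells of 3 pooled brains made up each library, and each combination of genotype and time had 1 library. Neither ages, nor the number of Cre alleles, nor the floxed exons of Cd300a are stated in the labels, and Cre transcripts were not analysed here.

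Lysozyme cuts the peptidoglycan of bacterial cell walls, and in mice it is encoded by a pair of genes that arose by duplication. Lyz2 is the form known from macrophages, monocytes and neutrophils, which store or secrete the enzyme, whereas Lyz1 is best known from the Paneth cells of the small intestine. In the widely used myeloid Cre line of this name, Cre was inserted at the start of the Lyz2 coding sequence, so that the changed allele makes Cre in place of lysozyme M. The labels do not say whether the mice here carry that line. Cells that use Lyz2 in fl/fl mice are those in which a Cre under the same promoter would be made.

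In the mm10 build Lyz2 (ENSMUSG00000069516) spans chr10:117277331-117282321 and Lyz1 (ENSMUSG00000069515) spans chr10:117287797-117292868. Both lie on the minus strand with 4 exons each, Lyz1 first in the direction of transcription, and 5475 bases separate them. Their annotated transcripts are 1316 (Lyz2) and 1263 (Lyz1) bases long. The coding sequences, 447 bases each, were identical at 425 of 447 aligned bases (95.1%), and the sequences after the stop codon at 756 of 791 (95.6%). The 250 bases before each start site are shown because the 2 genes share much of this region and yet were used at very different levels. They come from RefSeq on GRCm38.p6, minus strand, at chr10:117282273-117282522 for Lyz2 and chr10:117292869-117293118 for Lyz1, and are written 5′ to 3′ with the RefSeq start site following the last base. The RefSeq start used for Lyz2 lies 49 bases inside the annotated mm10 span given above, whereas that of Lyz1 is the first base of its span.
Lyz2: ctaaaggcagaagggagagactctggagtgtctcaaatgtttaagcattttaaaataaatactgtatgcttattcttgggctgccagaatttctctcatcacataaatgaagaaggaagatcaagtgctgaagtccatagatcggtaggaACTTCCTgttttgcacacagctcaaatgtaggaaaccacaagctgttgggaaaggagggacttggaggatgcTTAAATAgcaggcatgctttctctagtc
Lyz1: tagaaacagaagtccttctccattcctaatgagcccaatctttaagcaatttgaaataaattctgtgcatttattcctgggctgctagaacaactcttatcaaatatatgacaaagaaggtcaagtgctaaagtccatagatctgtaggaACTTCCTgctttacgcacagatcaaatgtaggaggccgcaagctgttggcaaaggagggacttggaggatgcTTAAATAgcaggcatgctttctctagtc
Capitals mark ACTTCCT, the reverse complement of AGGAAGT, an ETS-type motif that contains the core bound by the myeloid factor PU.1, and TTAAATA, an A and T rich stretch. They were chosen after the sequences were seen. Each begins at the same place in both genes, 100 and 28 bases before the RefSeq start site. The 2 regions were identical at 200 of 252 aligned positions (79.4%), and without a break over the 50 bases next to the start. Searched on both strands, AGGAAGT was present in 7.8% and TTAAATA in 4.37% of 27025 promoter windows, each the 250 bases before a gene's start. TTNNGNAA, a C/EBP-type motif, occurred 55 bases before the start in Lyz2 and 209 before it in Lyz1, and in 36.9% of the windows. No TATAAA was in either region, while 13% of the windows held one.

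The 6 libraries held 35479437 to 48478866 UMIs (unique molecular identifiers, 1 per captured transcript) and left 6719 to 9611 cells each after filtering, with a median of 3902 to 5225 UMIs per cell. Ptprc, which encodes CD45, had a UMI in 66.7% to 82.4% of the cells of a library. Markers of endothelium (Cldn5), astrocytes (Aqp4) and neurons (Snap25) each had one in at most 0.157%. Between 85 and 119 cell barcodes per library also occurred in another library. Cells were grouped into classes by marker genes without Lyz1, Lyz2 or Cd300a, and class names carry the ending -like. Levels are given as CPM, the UMIs of a gene scaled to 1e6 UMIs of its class in a library. The chemistry counts a transcript once at its polyadenylated end whatever its length, so the UMIs of 2 such similar transcripts can be set side by side. Reads that match both genes could be split between them or lost: 42 of the 1226 windows of 91 bases in the Lyz2 transcript occur exactly in the Lyz1 transcript, 14 of them among the 410 windows in its last 500 bases. In those last bases the median window differed from the other transcript at 5 positions.

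Monocyte-like cells were the strongest users of Lyz2 in fl/fl mice. Without Cre they held 24570 CPM of Lyz2 in the naive library, 23460 at 1 h and 19460 at 3 h, and the median cell had 123, 96 and 191 Lyz2 UMIs. A Lyz2 UMI was seen in 99.13%, 99.45% and 100% of them. Among monocyte-like cells the cluster led by Fn1, Vcan and Ccr2, genes of classical monocytes, was at 36140, 30770 and 21560 CPM in fl/fl mice. The cluster led by Ace, Ear2 and Treml4, genes of patrolling monocytes, was lower at each time, at 12350, 12970 and 8238 CPM.

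Border-associated macrophage-like cells, the macrophages of meninges and vessels, came next with the neutrophil-like cells among the classes large enough to test, and the order of these classes differed between times. The macrophage-like cells held 7525, 8816 and 5635 CPM of Lyz2 in fl/fl mice, with a UMI in 100% of cells at each time and a median of 40.5, 37 and 20 UMIs. Neutrophil-like cells were at 13060 CPM in the naive, 6965 at 1 h and 2614 at 3 h fl/fl library. The exact Poisson intervals of those neutrophil levels, which cover counting error only, ran from 12790 to 13330, from 6806 to 7127 and from 2561 to 2669 CPM. There was 1 library per time, so the difference between times has no test. The makeup of the class differed between these libraries. In the cluster led by Ltf, Ngp and Camp, granule genes of immature neutrophils, fl/fl cells held 16390, 11560 and 14340 CPM at the 3 times. The cluster that made up 963 of the 1061 neutrophil-like cells at 3 h held 1229 CPM there.

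Conventional dendritic cell-like cells had 4273, 1738 and 1468 CPM of Lyz2 in fl/fl mice, and 79.63%, 90.62% and 78.26% of them had a UMI. Microglia-like cells, the resident macrophages of brain tissue and by far the most numerous class, were at 211.4, 226.1 and 194.4 CPM. A UMI was seen in 46.94%, 43.07% and 40.31% of them, and the median microglia-like cell held none. The microglia-like cluster that includes Ccl12 and Trem2 among its leading genes had 578.2, 853.3 and 402.1 CPM. In the other microglia-like clusters of at least 10 cells the fl/fl level lay between 60.5 and 455 CPM.

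Lymphocyte-like cells, which do not normally make lysozyme, were set beside the classes above. Where their Lyz2 UMIs came from was not tested. In fl/fl libraries 7.49%, 5.848% and 8.553% of T cell-like cells had a Lyz2 UMI, at a median depth of 4816, 4480 and 5186 UMIs per cell. The microglia-like cells of the same libraries had a similar median depth (4918.5, 4231.5 and 4292), and each had a share above those of all lymphocyte-like classes. B cell-like cells showed 3.39%, 2.797% and 4.918%, and NK cell-like cells 9.174%, 1.852% and 3.279%. A few cells held most of these counts. A single NK cell-like cell carried 262 of the 277 UMIs of the naive fl/fl class, and 2 B cell-like cells carried 75 of the 77 UMIs at 1 h. Without the cells of 10 or more UMIs, lymphocyte-like classes lay between 4.606 and 25.0 CPM in fl/fl libraries.

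Rare classes were too small to test. Myeloid progenitor-like cells had 20.57 and 41.6 CPM of Lyz2 in the naive and 1 h Lyz2-cre libraries (15 and 82 cells), against 16240 and 16560 CPM in fl/fl libraries (9 and 6 cells). At 3 h this class held 0 CPM in the Lyz2-cre library (3 cells) and 98.69 CPM in the fl/fl library (1 cell). Plasmacytoid dendritic cell-like cells held no Lyz2 UMI in Lyz2-cre libraries (12, 27 and 2 cells), against 246.7, 713.3 and 67.35 CPM in fl/fl libraries (12, 3 and 2 cells). Mast cell- or basophil-like and erythroid-like cells, at most 11 in any library, had no Lyz2 UMI in either genotype.

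By the share of all Lyz2 UMIs in a fl/fl library, monocyte-like cells gave 46.27%, 59.93% and 86.24% at the 3 times. Neutrophil-like cells gave 18.52%, 15.43% and 7.845%. The many microglia-like cells gave 12.25%, 14.56% and 3.516%.

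**Figure D1:**
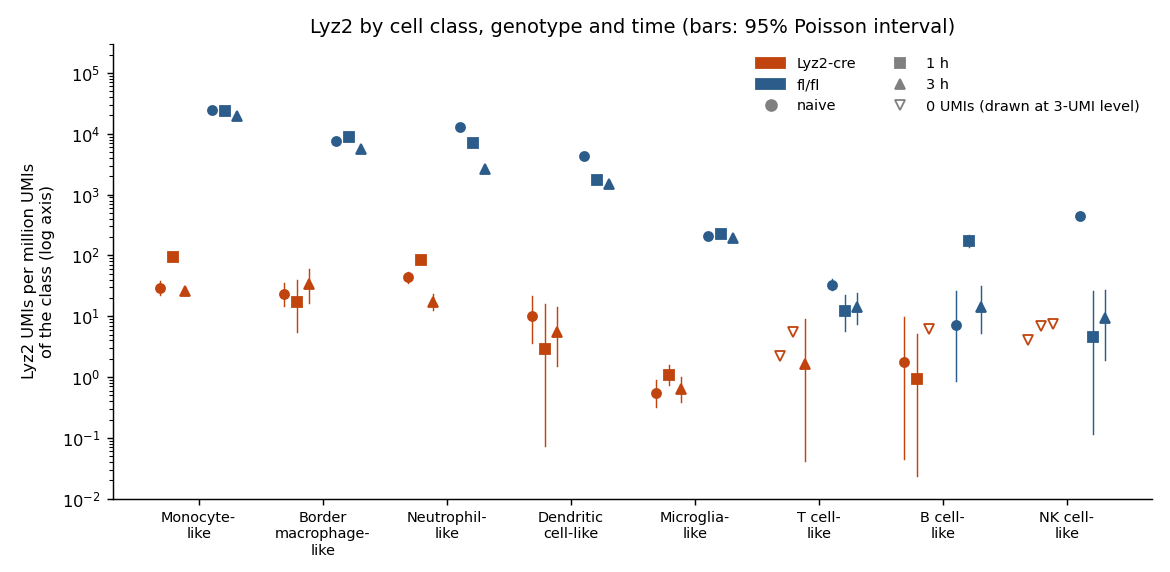
Lyz2 level (CPM, log axis) in each library and class, Lyz2-cre left of fl/fl, with points at naive, 1 h and 3 h exact 95% Poisson intervals as bars and open triangles, drawn at the level of 3 UMIs, for 0 UMIs. Fl/fl monocyte-like cells sit at 19460 CPM or above and fl/fl microglia-like cells at 194.4 to 226.1 CPM, and each Lyz2-cre point of these classes lies below every fl/fl point of its class.

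The genotype comparison asked how much Lyz2 message was left where the locus carries Cre. It was nearly gone from every class that used it. Monocyte-like cells of Lyz2-cre mice kept 29.28 CPM when naive, 93.84 at 1 h and 26.15 at 3 h, against 24570, 23460 and 19460 CPM in fl/fl mice. The means were 49.76 ± 38.21 CPM in Lyz2-cre and 22500 ± 2688 CPM in fl/fl libraries (SD over the 3 times, n = 3 each). The groups did not come near each other, and the fitted log2 fold change was −9.04 ± 0.65 (SE).

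In border-associated macrophage-like cells Lyz2 was at 23.42, 16.89 and 33.3 CPM in Lyz2-cre libraries and 7525, 8816 and 5635 CPM in fl/fl libraries. It fell by 8.23 ± 0.30 on the log2 scale (edgeR's quasi-likelihood test, adjusted p = 1.93e-20), in a comparison that called 0.148% of 5421 genes. Conventional dendritic cell-like cells held 10.06, 2.85 and 5.575 CPM in Lyz2-cre libraries (6, 1 and 4 UMIs), against 4273, 1738 and 1468 CPM in fl/fl libraries. There Lyz2 fell by 8.53 ± 0.25 (adjusted p = 8.14e-13), where 0.113% of 6213 genes were called. Border-associated macrophage-like cells held 22, 5 and 11 Lyz2 UMIs in Lyz2-cre libraries. In both classes Lyz2 passed the filter on low counts through its fl/fl counts, so these p-values add little to the levels themselves. No combination of genotype and time had a second library, so these p-values rest on departures from a model that adds genotype and time.

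Microglia-like cells had 0.5534, 1.098 and 0.647 CPM of Lyz2 in Lyz2-cre libraries and 211.4, 226.1 and 194.4 CPM in fl/fl libraries. The level fell by 8.16 ± 0.14 on the log2 scale (adjusted p = 3.28e-08), in a contrast that called 0.365% of 12889 genes. Markers of the richest sources of Lyz2 did not fall with it in that class. Lyz2 itself fell in those sources, so these marker sums cannot tell where the Lyz2 UMIs of microglia-like cells came from. That origin was not tested. The 12 neutrophil markers summed to 277.4 to 523.4 CPM in microglia-like cells of Lyz2-cre and 243.2 to 301.2 CPM in those of fl/fl libraries. The 12 monocyte markers summed to 102 to 163.8 CPM in Lyz2-cre and 69.95 to 89.1 CPM in fl/fl libraries, with no marker of that list at 0 in any library.

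In neutrophil-like cells Lyz2 stood at 44.25, 83.96 and 17.44 CPM in Lyz2-cre libraries and at 13060, 6965 and 2614 CPM in fl/fl libraries. It fell by 7.15 ± 0.43 on the log2 scale (adjusted p = 1.81e-04), and 0.0243% of the 8239 genes tested in this class were called, the other being Cd300a. The monocyte-like difference of −9.04 was larger than this but was not called (adjusted p = 0.434), while 0.0106% of 9431 genes were called in that class. DESeq2 called it (log2 fold change −9.1), and edgeR called it without the robust option, without either 1 h library (−9.64) and without either 3 h library (−8.75). The highest Lyz2-cre value of the class was 93.84 CPM and the lowest fl/fl value 19460 CPM.

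T cell-like cells had 1 Lyz2 UMI in all 3 Lyz2-cre libraries together, against 91, 10 and 13 UMIs in the fl/fl libraries. That too was called (adjusted p = 0.00944, 0.0888% of 7883 genes called), with a fitted log2 fold change of −5.54 ± 0.75 that depends on the prior count. Lyz2 passed the filter on low counts in this class through its fl/fl counts. Lyz2 UMIs that strayed from other cells would fall with the level of Lyz2 in those cells. This difference thus cannot show that T cell-like cells used Lyz2. The call was lost without the fl/fl naive library (log2 fold change −3.77, adjusted p = 0.259), whose class holds a single cell with 39 of the 91 UMIs.

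Depth was then fixed by thinning each cell to 2000 UMIs. In monocyte-like cells 7.60% ± 4.997 of Lyz2-cre and 99.5% ± 0.456 of fl/fl cells had a Lyz2 UMI (mean and SD over 3 libraries each). Border-associated macrophage-like cells gave 2.59% ± 2.25 in Lyz2-cre and 97.5% ± 1.62 in fl/fl mice. Conventional dendritic cell-like cells gave 2.19% ± 2.62 in Lyz2-cre and 65.4% ± 2.11 in fl/fl mice. The genotypes did not overlap in any of these classes.

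Neutrophil-like cells, thinned in the same way, had a UMI in 7.50% ± 4.57 of Lyz2-cre and 83.1% ± 18.4 of fl/fl cells. Microglia-like cells stood at 0.142% ± 0.0578 in Lyz2-cre and 26.6% ± 0.555 in fl/fl libraries. T cell-like cells stood at 0.330% ± 0.572 in Lyz2-cre and 2.53% ± 1.23 in fl/fl libraries. In all 6 classes the exact two-sided permutation p was 0.1, the smallest that 3 against 3 libraries allow, or 0.133 after Benjamini-Hochberg adjustment over 8 classes. Thinning left out 362 Lyz2-cre and 262 fl/fl neutrophil-like cells, 900 Lyz2-cre and 680 fl/fl microglia-like cells, and no more than 41 cells per genotype in the other 4. Before thinning, 16.82%, 24.0% and 3.397% of Lyz2-cre and 90.97%, 82.26% and 67.3% of fl/fl neutrophil-like cells had a UMI.

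**Figure D2:**
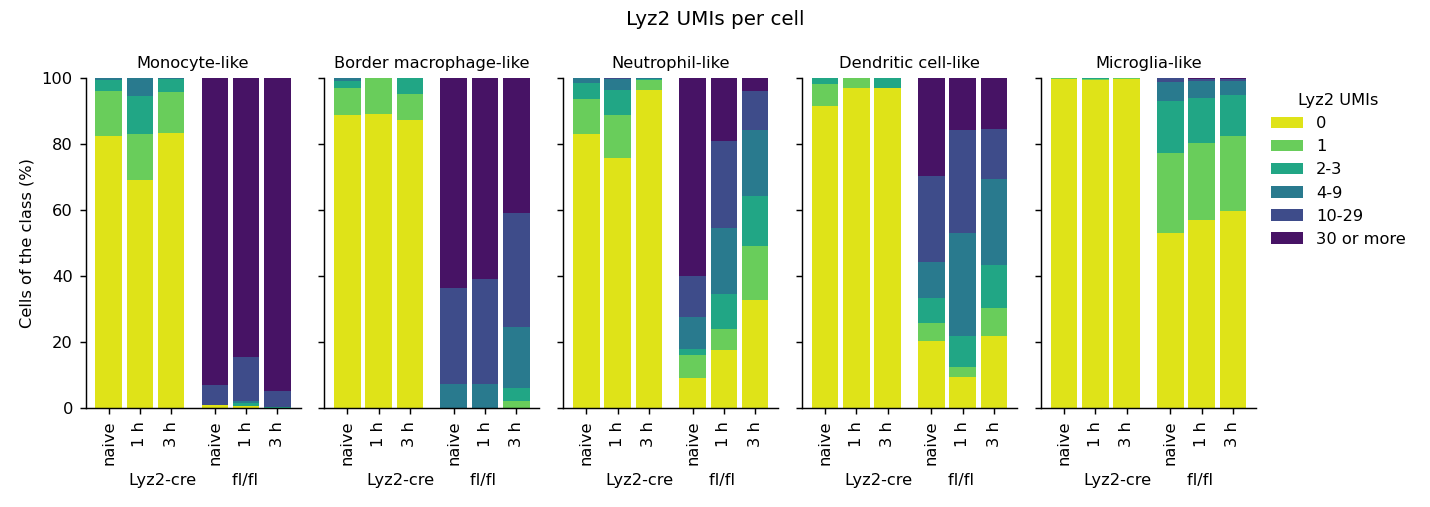
Share of cells (%) by number of Lyz2 UMIs per cell, for each class and library, Lyz2-cre left of fl/fl. Most Lyz2-cre cells of each class hold 0 UMIs, whereas the median fl/fl monocyte-like cell holds 96 to 191.

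What remained of Lyz2 in Lyz2-cre mice was spread thinly. The naive, 1 h and 3 h libraries held 202, 873 and 269 Lyz2 UMIs in 137, 430 and 199 cells, and 100, 230 and 154 of these cells held exactly 1. Just 1 cell of the 3 libraries reached 10 UMIs, a neutrophil-like cell of the 1 h library with 11. Neutrophil-like cells gave 44.55%, 57.62% and 18.22% of the residual UMIs and monocyte-like cells 29.21%, 29.9% and 68.77%.

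Set against the fl/fl library of the same time, the residual level in monocyte-like cells was 0.119%, 0.4% and 0.134%. It was 0.339%, 1.21% and 0.667% in neutrophil-like cells, 0.311%, 0.192% and 0.591% in border-associated macrophage-like cells, and 0.262%, 0.486% and 0.333% in microglia-like cells. At 1 h the cluster led by Ltf, Ngp and Camp made up 360 of 1021 Lyz2-cre and 39 of 327 fl/fl neutrophil-like cells. Within it Lyz2 was at 107.3 CPM in Lyz2-cre and 11560 CPM in fl/fl cells at that time. The part of class makeup in the residual levels was not tested. Cells whose barcode also occurs in another library, 82, 88 and 111 of the Lyz2-cre cells, held 1, 6 and 5 of the residual UMIs.

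Lyz1 was scarce in fl/fl mice in every class and was higher in each Lyz2-cre than in each fl/fl library in 3 myeloid classes. With all libraries, edgeR called none of these 3 differences. So few libraries can separate by chance, and the share of all tested genes that did so is not given here. Separation alone is thus a description of the Lyz1 values and not a test. Monocyte-like cells had 632.2, 344.8 and 465.4 CPM of Lyz1 in the naive, 1 h and 3 h Lyz2-cre libraries and 59.98, 34.78 and 8.424 CPM in fl/fl libraries. The groups did not overlap, at 480.8 ± 144.3 CPM in Lyz2-cre and 34.39 ± 25.78 CPM in fl/fl libraries (SD, n = 3 each). The fitted log2 fold change of 4.17 ± 0.64 was not called by edgeR (adjusted p = 0.763). DESeq2 called it, as did edgeR without the robust option or without either 3 h library (3.35).

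Border-associated macrophage-like cells held 654.6, 152 and 317.8 CPM of Lyz1 in Lyz2-cre and 88.62, 106.9 and 74.65 CPM in fl/fl libraries, a log2 fold change of 2.04 ± 0.59 (adjusted p = 0.991). Conventional dendritic cell-like cells had 266.6, 48.45 and 78.04 CPM in Lyz2-cre and 3.63, 0 and 21.24 CPM in fl/fl libraries (3.89 ± 0.81, adjusted p = 0.562). Every Lyz2-cre library exceeded every fl/fl library in both classes, and neither difference was called with all libraries. In conventional dendritic cell-like cells the fl/fl libraries held 2, 0 and 10 Lyz1 UMIs. There Lyz1 passed the filter on low counts through its Lyz2-cre counts. The call in border-associated macrophage-like cells appeared without either 1 h library (2.60 and 2.61) and without the Lyz2-cre naive library (1.28), and that in conventional dendritic cell-like cells without either 3 h library (6.22 and 6.23). Neutrophil-like cells had little Lyz1 in either genotype, 28.51, 4.34 and 2.491 CPM in Lyz2-cre and 5.794, 2.866 and 0 CPM in fl/fl libraries (2.20 ± 0.61, adjusted p = 0.386). There the groups overlapped, and the difference was called without the Lyz2-cre 3 h library (1.87). In the naive Lyz2-cre library 1 neutrophil-like cell held 39 of the 58 Lyz1 UMIs of the class, and without it the level was 9.373 CPM. The 1 h and 3 h Lyz2-cre libraries held 26 and 7 Lyz1 UMIs in this class, and the fl/fl libraries 4, 3 and 0. Microglia-like cells held 10, 4 and 25 Lyz1 UMIs in the Lyz2-cre and 1, 6 and 2 in the fl/fl libraries, too few to pass the filter on low counts.

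**Figure D3:**
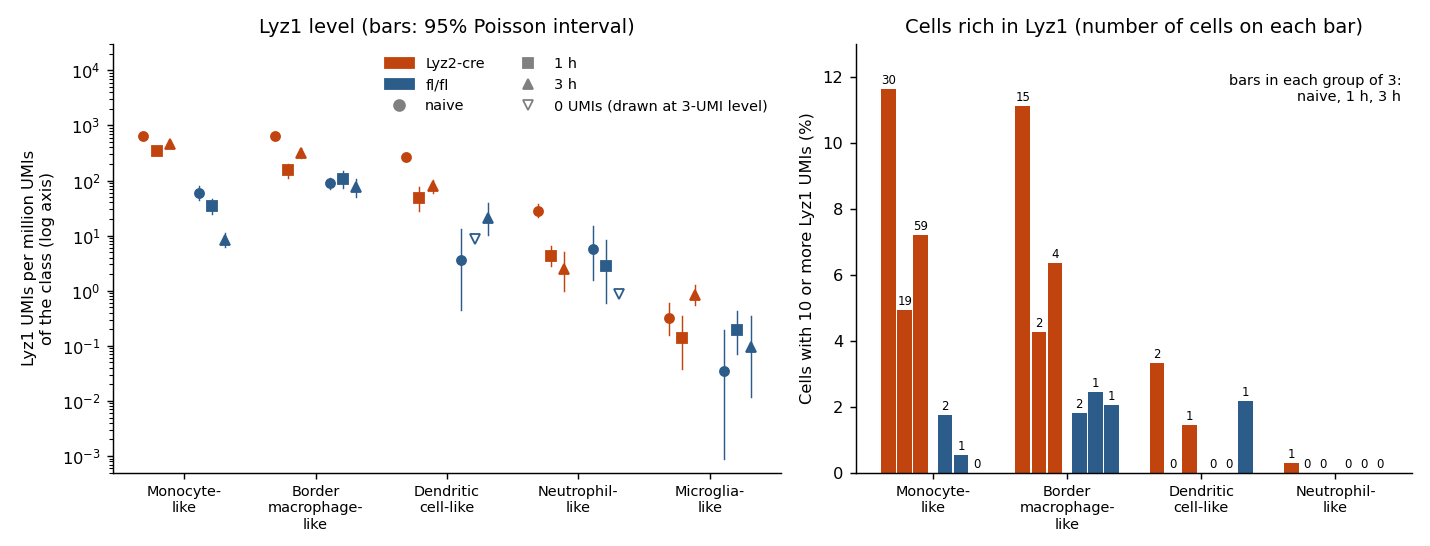
Left, Lyz1 level (CPM, log axis) per library and class, Lyz2-cre left of fl/fl, with exact 95% Poisson intervals and open triangles at the level of 3 UMIs for 0 UMIs; right, the share of cells (%) with at least 10 Lyz1 UMIs, the number of such cells on each bar. In monocyte-like cells the Lyz2-cre points lie between 344.8 and 632.2 CPM and the fl/fl points between 8.424 and 59.98 CPM.

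The Lyz1 message of monocyte-like cells came from few cells. Cells with at least 10 Lyz1 UMIs, a limit chosen after the values were seen, numbered 30 of 258, 19 of 386 and 59 of 820 in the naive, 1 h and 3 h Lyz2-cre libraries. In fl/fl libraries they numbered 2 of 115, 1 of 182 and 0 of 513. They made up 11.63%, 4.922% and 7.195% of the Lyz2-cre class and held 96.7%, 92.81% and 95.2% of its Lyz1 UMIs. The highest single cell had 153, 108 and 170 UMIs in Lyz2-cre and 23, 13 and 5 in fl/fl libraries.

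These Lyz1-rich cells were found in both monocyte-like clusters. In the Fn1, Vcan and Ccr2 cluster of the naive, 1 h and 3 h Lyz2-cre libraries they were 8 of 76, 6 of 150 and 48 of 666 cells (10.5%, 4.0% and 7.21%). In the Ace, Ear2 and Treml4 cluster they were 21 of 171, 11 of 179 and 11 of 149 cells (12.3%, 6.15% and 7.38%). Without the Lyz1-rich cells, monocyte-like cells were at 23.65, 26.1 and 24.02 CPM of Lyz1 in Lyz2-cre and 11.06, 24.07 and 8.424 CPM in fl/fl libraries. Border-associated macrophage-like cells with at least 10 Lyz1 UMIs numbered 15 of 135, 2 of 47 and 4 of 63 in Lyz2-cre and 2 of 110, 1 of 41 and 1 of 49 in fl/fl libraries. Without them that class was at 94.15, 14.14 and 64.95 CPM in Lyz2-cre and 0, 13.87 and 0 CPM in fl/fl libraries.

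The Lyz1 values of conventional dendritic cell-like cells rested on even fewer cells. In the naive Lyz2-cre library 2 cells held 153 of the 159 Lyz1 UMIs, and at 3 h 1 cell held 48 of the 56. In the fl/fl 3 h library 1 cell held all 10. Without these cells the level was 10.55, 48.45 and 11.32 CPM in Lyz2-cre (6, 17 and 8 UMIs), against 3.63, 0 and 0 CPM in fl/fl libraries (2, 0 and 0 UMIs).

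Lyz1 was then read in cells without a Lyz2 UMI, of which fl/fl mice had hardly any among monocyte-like and border-associated macrophage-like cells. Of the monocyte-like cells without a Lyz2 UMI, 40 of 213, 38 of 267 and 105 of 685 had a Lyz1 UMI in Lyz2-cre libraries. The fl/fl libraries held 1, 1 and 0 such cells without Lyz2, so no comparison could be made. Every fl/fl monocyte-like cell with Lyz1 (8, 15 and 32 cells) also had Lyz2. In Lyz2-cre monocyte-like cells Lyz1-rich cells had a Lyz2 UMI in 10.0%, 15.79% and 15.25%, and cells without Lyz1 in 18.78%, 32.84% and 16.79%.

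At 2000 UMIs per cell, Lyz1 was seen in 13.45% ± 5.70 of Lyz2-cre border-associated macrophage-like cells without Lyz2, and in none of the 4 such fl/fl cells, too few for a comparison. In conventional dendritic cell-like cells without Lyz2 the share was 5.71% ± 2.96 in Lyz2-cre mice, with none among 19, 10 and 16 cells of the fl/fl libraries. In neutrophil-like cells it was 1.29% ± 1.14 in Lyz2-cre mice and 0 of 5, 18 and 360 cells in the fl/fl libraries. With so few fl/fl cells a share of this size need not show, and no p is given. In microglia-like cells the share was 0.0932% ± 0.0773 in Lyz2-cre and 0.0238% ± 0.0212 in fl/fl mice (exact permutation p = 0.3), and the groups overlapped.

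Lyz1 did not fill the place of Lyz2 in total lysozyme message. Lyz1 and Lyz2 together came to 661.5, 438.6 and 491.6 CPM in monocyte-like cells of Lyz2-cre and 24630, 23490 and 19470 CPM in those of fl/fl libraries. The sum, which is not affected by how reads were split between the copies, fell by 5.44 ± 0.12 on the log2 scale (adjusted p = 1.03e-09). Lyz1 made up 95.57%, 78.61% and 94.68% of the lysozyme UMIs of this class in Lyz2-cre and 0.2435%, 0.1481% and 0.04326% in fl/fl libraries.

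The sum fell by 6.83 ± 0.35 in neutrophil-like cells (adjusted p = 2.12e-05). It fell by 7.51 ± 0.13 in microglia-like cells (adjusted p = 4.04e-08) and fell by 4.31 ± 0.21 in conventional dendritic cell-like cells (adjusted p = 7.99e-09). In T cell-like cells it fell by 4.16 ± 0.63 (adjusted p = 0.0222), a call lost without the robust option, without either naive library (−2.9 and −2.89) and without either 1 h library (−4.02 and −4.03). In border-associated macrophage-like cells the sum was 678.1, 168.9 and 351.1 CPM in Lyz2-cre and 7613, 8923 and 5710 CPM in fl/fl libraries. Its difference of −4.34 ± 0.57 was not called (adjusted p = 0.271), while DESeq2 called it (−4.42) and so did edgeR when any 1 library was left out (−4.89 to −3.71). Such fits are not independent, because leaving out either library of a time removes that time from the genotype comparison. When doublets were kept, the sum was no longer called in conventional dendritic cell-like cells (−4.6, adjusted p = 0.618) or in microglia-like cells (−6.71, adjusted p = 0.127).

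Most other genes read with the lysozyme family had few or no UMIs, with Lyzl4 and Lysmd2 as the exceptions. Lyzl4, a lysozyme-like gene, had 973 UMIs over all libraries, Lysmd2 had 302 and Lalba, the milk protein alpha-lactalbumin, had 21. Lyzl1, Lyzl6, Lyg1, Lyg2, Spaca3 and Spaca5 had 0. In microglia-like cells Lyzl4 was at 8.757, 6.314 and 3.507 CPM in Lyz2-cre and 5.705, 5.979 and 2.64 CPM in fl/fl libraries (log2 fold change 0.32 ± 0.15, adjusted p = 0.514). In the same Lyz2-cre libraries that class held 0.3256, 0.1373 and 0.8513 CPM of Lyz1 and 0.5534, 1.098 and 0.647 CPM of Lyz2.

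Cd300a, the gene that the Cre is meant to delete, was set beside Lyz2. In neutrophil-like cells it was at 16.22, 12.02 and 9.609 CPM in Lyz2-cre and 162.2, 236 and 125.6 CPM in fl/fl libraries, and fell by 3.71 ± 0.23 in log2 terms (adjusted p = 1.06e-04). Where Lyz2 was highest, in monocyte-like cells, Cd300a was at 210.9, 144.9 and 87.06 CPM in Lyz2-cre and 424.2, 418.2 and 181.2 CPM in fl/fl libraries, and fell by 1.21 ± 0.14 (adjusted p = 0.0306). The order of Lyz2 levels was thus not the order of the Cd300a differences.

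Border-associated macrophage-like cells had 39.38, 57.43 and 18.16 CPM of Cd300a in Lyz2-cre and 93.68, 90.23 and 74.65 CPM in fl/fl libraries (fell by 1.25 ± 0.27, adjusted p = 0.0471). Microglia-like cells had 137, 170.7 and 162.7 CPM in Lyz2-cre and 171.3, 211.6 and 206 CPM in fl/fl libraries (fell by 0.38 ± 0.06, adjusted p = 0.0472). Both calls were lost without either naive library, the first (−1.08) also without either 3 h library and the other (−0.41) also without either 1 h library. In conventional dendritic cell-like cells, which also used Lyz2, Cd300a was at 184.4, 210.9 and 282.9 CPM in Lyz2-cre and 128.9, 231.2 and 231.6 CPM in fl/fl libraries (log2 fold change 0.20 ± 0.17, adjusted p = 0.961). A UMI at the end of a transcript does not show which exons it holds, so these levels need not measure deletion.

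**Figure D4:**
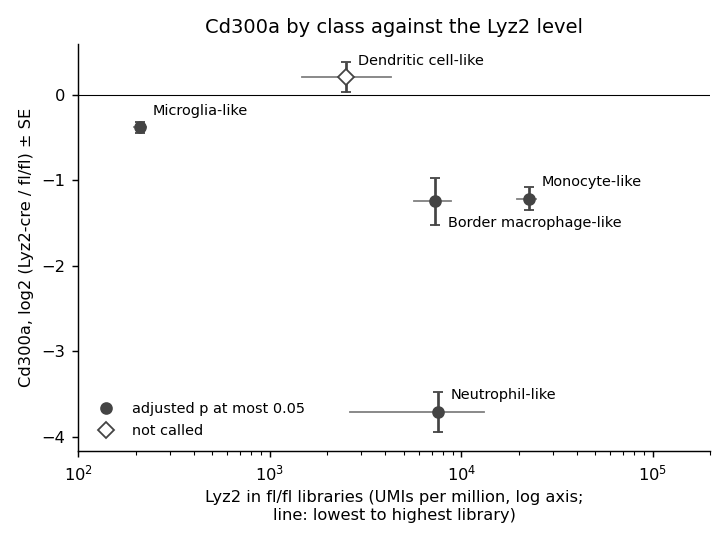
Cd300a difference (log2 fold change, Lyz2-cre over fl/fl, bars ± SE) against the mean fl/fl level of Lyz2 (CPM, log axis), 1 point per class, with a horizontal line over the lowest to highest fl/fl library. Neutrophil-like cells lie at −3.71, monocyte-like cells at −1.21 with a higher Lyz2 level, and conventional dendritic cell-like cells at 0.20.

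Genes around the changed locus were examined for differences between genotypes. Of 31 genes annotated within 500 kb of Lyz2, Lyz1 left aside, 22 were in the matrix and between 4 and 9 were tested per class, 50 gene and class pairs over the 8 classes tested. edgeR called 0 of the 50 and DESeq2 called 0, while edgeR called 0.0106% to 0.711% of all genes tested per class. An unadjusted p under 0.05 was seen in 7 of the 50 pairs, a larger share than the 7.03% of all 61798 pairs tested. Of these 7, 4 were among the 7 neighbours tested in neutrophil-like cells, where 8.57% of all genes tested had such a p. They were Yeats4, a chromatin reader (log2 fold change 0.77 ± 0.22, adjusted p = 0.393), Cct2, a chaperonin subunit (0.61 ± 0.22, adjusted p = 0.487), Nup107 of the nuclear pore (1.40 ± 0.58, adjusted p = 0.562) and Rab3ip, an activator of Rab8 (−1.10 ± 0.47, adjusted p = 0.57). Without the Lyz2-cre 3 h library Yeats4 was called (0.90, adjusted p = 0.0372). The makeup of the neutrophil-like class differed between genotypes at 1 h, and its part in these differences was not tested. The other 3 were Cpm, a carboxypeptidase (0.86 ± 0.34, adjusted p = 0.492), and Mdm2, the ubiquitin ligase of p53 (0.65 ± 0.30, adjusted p = 0.654), in B cell-like cells, and Cpsf6, a factor of RNA 3′ end processing (0.65 ± 0.23, adjusted p = 0.483), in NK cell-like cells. The share of all genes called was 0.711% in B cell-like and 0.151% in NK cell-like cells. The median log2 fold change of the neighbours was between −0.15 and 0.1 per class, against −0.01 to 0.01 over all genes tested in those classes.

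**Figure D5:**
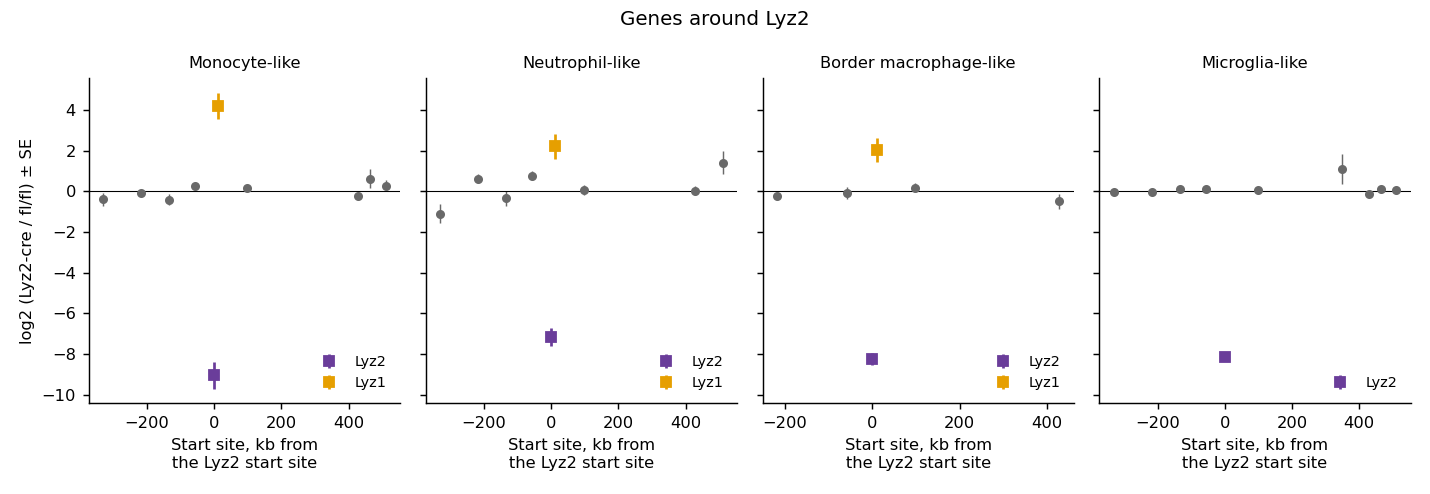
Log2 fold change (Lyz2-cre over fl/fl) with SE bars of Lyz1, Lyz2 and the tested genes within 500 kb (grey), against the distance of their start site from that of Lyz2 (kb), in 4 classes. Lyz2 lies between −9.04 and −7.15, and no grey gene was called.

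Genes that work with lysozyme were read from lists, first in the 6 classes in which Lyz2 passed the filter on low counts. There 69 pairs of a class and a granule or secreted antimicrobial gene were tested, and edgeR and DESeq2 each called 0. An unadjusted p under 0.05 was seen in 12 of the 69, against 7.18% of all pairs tested in these classes. Their median log2 fold change was 0.57, and it was 1.62 for the 19 tested in microglia-like cells, where 4 had such a p, against 10.1% of all genes tested. There Prtn3, proteinase 3 of neutrophil granules, was at 3.06, 7.824 and 0.2043 CPM in Lyz2-cre and 0, 0.5913 and 0.192 CPM in fl/fl libraries (adjusted p = 0.353). It was called without either 3 h library (4.22 and 4.23), and is named after its values were seen. Prtn3 was among the markers of the myeloid progenitor-like class. At the 3 times that class held 15, 82 and 3 cells in Lyz2-cre and 9, 6 and 1 in fl/fl libraries. Neutrophil markers, which did not include Prtn3, were at 277.4 to 523.4 CPM in microglia-like cells of Lyz2-cre and 243.2 to 301.2 CPM in those of fl/fl libraries. The part of progenitor-like or neutrophil-like cells in the Prtn3 values was not tested.

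In B cell-like cells 4 of the 8 granule genes tested were called, all lower, in a contrast that called 0.711% of 5770 genes. The class held 104, 309 and 147 cells in Lyz2-cre and 59, 143 and 122 in fl/fl libraries. A count of 3 UMIs came to between 2.789 and 10.61 CPM there, so the lowest values below rest on few UMIs. Slpi, a protease inhibitor, was at 92.77, 2.789 and 4.065 CPM in Lyz2-cre and 760.6, 45.6 and 7.169 CPM in fl/fl libraries, and fell by 3.13 ± 0.25 on the log2 scale (adjusted p = 7.33e-15). Ngp, a granule protein, was at 10.5, 39.98 and 6.097 CPM in Lyz2-cre and 3.538, 209.8 and 2.39 CPM in fl/fl libraries (−1.91 ± 0.38, adjusted p = 0.0242). It was thus higher in Lyz2-cre at 2 of the 3 times, and without either 1 h library its difference reversed (1.34 and 1.33) and was not called. Camp, which encodes cathelicidin, was at 1.75, 39.05 and 2.032 CPM in Lyz2-cre and 3.538, 111.7 and 9.559 CPM in fl/fl libraries (−1.46 ± 0.34, adjusted p = 0.0121). Its call was lost without either 1 h library (−1.73 and −1.7) and without the Lyz2-cre naive library (−1.47).

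Pglyrp1, a peptidoglycan binding protein, was at 40.26, 72.51 and 24.39 CPM in Lyz2-cre and 63.68, 145.9 and 43.02 CPM in fl/fl libraries (−0.88 ± 0.22, adjusted p = 0.024). Its call was lost without either naive library (−0.91 for each), without either 1 h library (−0.79 for each) and without the fl/fl 3 h library (−0.88). DESeq2 called 1 of the 4, Slpi, and with doublets kept Slpi (−2.9), Ngp (−1.75) and Camp (−1.32) were not called. The groups overlapped in each of these 4 genes. Neutrophil markers summed to 99.77, 343 and 136.2 CPM in B cell-like cells of Lyz2-cre and 31.84, 6281 and 193.6 CPM in those of fl/fl libraries, and their part in these differences was not tested. In NK cell-like cells edgeR called 0 of 3 granule genes and DESeq2 called 0, with 1 at an unadjusted p under 0.05.

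Peptidoglycan sensing genes, such as the Toll-like and Nod receptors, gave 90 pairs over all 8 classes, of which edgeR called 0, with 8 at an unadjusted p under 0.05, against 7.03% of all pairs tested. DESeq2 called 2, Tlr2 and Slc15a4 in microglia-like cells. The median was −0.03. Lysosomal hydrolases gave 173 pairs with 0 called by edgeR and 0 by DESeq2. An unadjusted p under 0.05 was seen in 26 of the 173, a larger share than the 7.03% of all pairs tested. Of those 26, 8 were among the 22 tested in neutrophil-like cells, where 8.57% of all genes tested had such a p. The makeup of that class differed between genotypes at 1 h, and its part in these values was not tested. The median of the hydrolases was −0.34 in neutrophil-like and 0.34 in T cell-like cells, and 0.00 over all 173 pairs.

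Genes with the most similar use were ranked by Pearson's r of log2(CPM + 10) over 24 profiles, the 8 tested classes at 3 times in 1 genotype. The profiles of 1 library share its depth, and the values are descriptions. Nearest to Lyz2 in fl/fl mice, of 6203 genes, were Tgfbi (r = 0.936), Ifi204 (0.933), Milr1 (0.929) and Fcgr4 (0.928), then Ifitm3, Csf2ra, Lst1 and Ccl6 (0.913 to 0.922). Nearest to Lyz1 in Lyz2-cre mice, of 6200 genes, were Gm6377 (0.933), Clec4a1 (0.929), Stom (0.917) and Ifi211 (0.911), then F13a1, Cd36, Mcub and Ifi207 (0.89 to 0.904). No gene was in both sets of 8.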

How the data were processed

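The deposited values are raw UMI counts per gene and barcode in filtered matrices, which the authors made with Cell Ranger 3.0.2 on mm10, per the submitters' processing notes. Barcodes under 300 genes or over 10% mitochondrial UMIs were dropped, and 50634 of 51005 stayed. These were ranked by Scrublet's doublet score, and the highest 0.8% per 1000 barcodes were removed per library (410 to 906), because its automatic threshold called none in 3 libraries. This left 47077 cells. Leiden clustering in scanpy 1.11.5 at resolution 1 gave 21 clusters. The mixed macrophage and dendritic cell cluster and the cycling cluster were clustered again, and 45 clusters or parts were named from marker lists and 1 was not. Counts summed per library and class were tested with edgeR 4.0.16 (quasi-likelihood test, robust, TMM, filterByExpr, Benjamini-Hochberg at 0.05, terms for genotype and time), in classes with at least 10 cells in every library, and with DESeq2 1.42.0 as an alternative. The edgeR procedure was tested on simulated data. Each standard error is |log2 fold change| over the root of the F statistic. Members, lists and tests were chosen with earlier results of these data known. Genes named are Lyz1, Lyz2, Cd300a, their neighbours within 500 kb, list members that were called or serve as examples, and the 8 most similar genes to each member. Depth ran from 35479437 to 48478866 UMIs per library, and intervals cover counting error only. The other alternatives were size factors, filters on genes and cells, doublets, shared barcodes and single libraries left out. The results of one gene list and of one marker are not reported here.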

Additional observations from a re-analysis of the deposited data

How the results depend on the processing

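Lyz2 kept its direction under every alternative run in all 6 classes, and its calls in border-associated macrophage-like, dendritic cell-like, microglia-like and neutrophil-like cells held throughout. Without the robust option the T cell-like call was lost (−5.54) and the monocyte-like difference was called (−9.04), as it was by DESeq2 (−9.1). The Lyz1 difference was called without the gene filter in border-associated macrophage-like (2.04), dendritic cell-like (3.89) and neutrophil-like cells (2.25), without the robust option in border-associated macrophage-like (2.04) and monocyte-like cells (4.17), by DESeq2 in monocyte-like cells (4.11) and with doublets kept in dendritic cell-like cells (4.25). The summed difference in border-associated macrophage-like cells was called by DESeq2 (−4.42), without the gene filter (−4.33) and without the robust option (−4.34). With doublets kept, the summed calls in dendritic cell-like (−4.6) and microglia-like cells (−6.71) were lost, and without the robust option that in T cell-like cells (−4.16). Cd300a in dendritic cell-like cells reversed with doublets kept (−0.1). The cause of these shifts was not tested.

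Over fits that leave out 1 library each, Lyz2 ranged from −8.58 to −7.97 in border-associated macrophage-like, −8.77 to −8.37 in dendritic cell-like, −8.47 to −7.96 in microglia-like, −9.64 to −8.75 in monocyte-like, −7.74 to −6.69 in neutrophil-like and −8.11 to −3.77 in T cell-like cells. Lyz1 ranged from 1.28 to 2.61 in border-associated macrophage-like, 2.39 to 6.23 in dendritic cell-like, 3.35 to 4.62 in monocyte-like and 1.87 to 2.88 in neutrophil-like cells. The sum ranged from −4.89 to −3.71, −4.59 to −4.05, −7.73 to −7.31, −5.53 to −5.29, −7.27 to −6.57 and −5.46 to −2.89 in border-associated macrophage-like, dendritic cell-like, microglia-like, monocyte-like, neutrophil-like and T cell-like cells.

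Counts of genes called were unstable. The main counts were 8 (border-associated macrophage-like), 7 (dendritic cell-like), 47 (microglia-like), 1 (monocyte-like), 2 (neutrophil-like), 7 (T cell-like), 41 (B cell-like) and 9 (NK cell-like). In that order of classes they were 1, 1, 120, 6, 6, 14, 2 and 0 with DESeq2 and 32, 61, 204, 46, 114, 132, 80 and 16 without the gene filter. Without the robust option they were 2, 2, 17 and 3 in the first 4 classes and 2 in T cell-like and 0 in NK cell-like cells. With doublets kept they were 15 (border-associated macrophage-like), 22 (dendritic cell-like), 2 (monocyte-like), 4 (T cell-like) and 17 (B cell-like). The stricter cell filter gave 2 (border-associated macrophage-like), 2 (monocyte-like), 5 (neutrophil-like), 14 (T cell-like), 1 (B cell-like) and 0 (NK cell-like). DESeq2 size factors gave 4 in border-associated macrophage-like cells, and leaving out shared barcodes gave 1 there, 2 in dendritic cell-like and 17 in NK cell-like cells. Without the cycling cluster, an alternative chosen after seeing the data, 5 were called in monocyte-like cells. Leaving out 1 library gave 6 to 55, 7 to 39, 3 to 359, 9 to 56, 2 to 423, 7 to 153, 28 to 66 and 3 to 25 in the same order. The highest counts came without the Lyz2-cre naive, Lyz2-cre 1 h, fl/fl 3 h, either 3 h, Lyz2-cre 3 h, fl/fl naive, Lyz2-cre 3 h and fl/fl naive library.

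Lyz2 detection in the 6 classes kept its direction at 1000 UMIs, unthinned and at 2 UMIs. No neighbour was called within 200 kb or 1000 kb. In B cell-like cells the calls of Slpi (−2.9), Ngp (−1.75) and Camp (−1.32) were lost with doublets kept and that of Slpi (−4.42) with the stricter cell filter, and Ngp ranged from −2.17 to 1.34 over fits without 1 library. Each fit sets the genotypes beside each other within a time through its time term. No paired analysis was possible beyond that because the labels give no replicate numbers. A library left out leaves 1 residual degree of freedom. The time term then takes up the partner library of that time. Leaving out either library of a time is thus nearly the same comparison, and such fits are not independent checks. Depth limits Lyz1 in microglia-like and neutrophil-like cells to a few UMIs.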
